A study of Mus musculus with 6 samples.

Results

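The genes that encode matrix metalloproteinases (Mmp), their tissue inhibitors (Timp), the Adamts and Adamts-like proteins, the lysyl oxidases (Lox, Loxl), the lysyl hydroxylases (Plod) and the catalytic prolyl 4-hydroxylase subunits (P4ha) were compared between the fat of tumor-bearing and healthy mice. Members were chosen by gene symbol among the protein-coding rows of the count table, which gave 61 genes of the 55039 listed, by a rule that uses no expression value. The rule was set with earlier results of these data known. The RNA came from epididymal white adipose tissue (eWAT) of male C57BL/6 mice that entered the study at 6 to 7 weeks of age. In the cachexia (CAC) group, Lewis lung carcinoma cells, a mouse lung tumor line of the same strain, were injected under the skin of the lower back, and the control (CONT) group received only the buffer, phosphate-buffered saline. Tissue was taken 28 days after the injection, and each group held 3 libraries, 1 per mouse. The groups differ by the tumor cells and by all that followed from them, which cannot be told apart here.

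The matrix of adipose tissue is a meshwork of collagens, proteoglycans and elastic fibers around each adipocyte, and it has to be opened and rebuilt whenever fat cells grow or shrink. Matrix metalloproteinases are zinc enzymes that cut collagens, gelatins, elastin and many other substrates, and the tissue inhibitors bind their active sites. The ADAMTS proteases carry a related zinc site together with thrombospondin repeats and divide by substrate into proteoglycanases, procollagen N-proteinases and others, whereas ADAMTS-like proteins lack the protease part. Lysyl oxidases crosslink collagen and elastin outside the cell, and prolyl 4-hydroxylases and lysyl hydroxylases modify collagen chains inside it before they are secreted.

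The zinc site was looked for in the coding sequence of each member as a histidine, a glutamate, 2 free residues, a histidine, 2 free residues, a glycine, 2 free residues and a histidine. It was present in 35 of 61 members, namely in 22 Mmp genes of 22, in 3 of 3 procollagen N-proteinases, in 9 of 9 other Adamts genes and, of 7 proteoglycanases, only in Adamts5. With asparagine allowed in place of the glycine, a pattern added after seeing the first result, 5 more proteoglycanases matched, Adamts1 and Adamts4 among them, and Adamts8 matched neither. No Adamts-like, Timp, Lox, Plod or P4ha gene held either pattern. The stretches below are those of the protease members that met an unadjusted p under 0.05 between CAC and CONT. Each has 33 bases of GENCODE M21 coding sequence on the GRCm38 build, read 5′ to 3′, with the histidine codons in capitals.
Mmp8, chr9:7563086-7563118, plus strand, exon 5 of 10: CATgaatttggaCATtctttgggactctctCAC
Mmp3, chr9:7449775-7449807, plus strand, exon 5 of 10: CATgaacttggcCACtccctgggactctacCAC
Mmp15, chr8:95368585-95368617, plus strand, exon 5 of 10: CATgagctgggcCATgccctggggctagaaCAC
Adamts16, chr13:70787149-70791812, minus strand, exons 8 and 9 of 23: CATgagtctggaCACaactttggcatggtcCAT
Adamts10, chr17:33538157-33538279, plus strand, exons 9 and 10 of 25: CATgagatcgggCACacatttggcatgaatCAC
Adamts5, chr16:85878015-85887826, minus strand, exons 2 and 3 of 8: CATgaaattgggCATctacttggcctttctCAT
Adamts1, chr16:85799191-85799545, minus strand, exons 3 and 4 of 9: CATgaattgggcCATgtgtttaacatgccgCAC
Adamts4, chr1:171253210-171253915, plus strand, exons 3 and 4 of 9: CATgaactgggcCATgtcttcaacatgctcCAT
Adamts1 and Adamts4 were identical at 27 of the 33 bases. Adamts5 shared 20 bases with Adamts1 and 19 with Adamts4. Mmp3 and Mmp8 shared 26. In the 5 Adamts genes shown an intron splits the stretch, so the coordinates of those genes span more than the bases printed.

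Depth ranged from 15713794 to 25926425 counts per library, and 1 CPM (reads scaled to library size with TMM factors) stood for 11.2 to 26.5 reads. Levels between libraries are given in CPM, and levels between genes in FPKM, which also divides by gene length. CONT replicate 1 stood apart: mitochondrial genes took 30.2% of its counts against 3.89% to 5.04% in the other libraries, and its TMM factor was 0.717. The 8 adipocyte markers, Adipoq and Plin1 among them, were all tested, with summed levels of 20000 to 50900 CPM, so markers of the labelled tissue were present in each library. Among the 8, Lep was at 697, 409 and 414 CPM in CONT and at 512, 4 and 0.415 CPM in CAC. The 61 genes together took 0.179% to 0.308% of the counts. Summed FPKM over the members was 359, 398 and 400 in CONT and 454, 324 and 282 in CAC, and the groups overlapped.

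Of the 61 members, 51 had enough counts to be tested among 17296 genes. The 10 left out had at most 69 reads over all libraries and a mean of at most 0.0943 FPKM, and 3 of them, Mmp10, Mmp20 and Mmp1b, had no read in any library. The others were Mmp13, Mmp16, Mmp21, Mmp24, Adamts13, Adamts19 and P4ha3. A count of 0 allows up to 0.113 CPM in CAC replicate 3 and 0.268 CPM in CONT replicate 1. At least 1 FPKM in a group mean was reached by 38 members, and 11 had a mean of at least 10 FPKM over all libraries.

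In CAC fat, the collagenase gene Mmp8 and the proteoglycanase genes Adamts4 and Adamts1 stood higher than in CONT fat, whereas the proteases Adamts5, Adamts16 and Mmp15 and the crosslinker Loxl1 stood lower. None of the tissue inhibitors or collagen hydroxylases met even an unadjusted p of 0.05. No member passed an adjusted p of 0.05 in edgeR, and neither did any other gene (0 of 17296, 0%). The lowest adjusted p was 0.142 among the members, for Adamts16, and 0.127 among all genes. The looser rule of an unadjusted p under 0.05 was met by 11 members of 51, or 21.6%, and by 13.3% of all genes tested. Mmp8, Mmp3, Adamts4 and Adamts1 were on the higher side in CAC, which is 7.84% of the members against 6.31% of all genes. Adamts16, Adamts5, Adamts10, Mmp15, Loxl1, Loxl2 and Adamtsl5 were on the lower side, which is 13.7% against 6.95%. The lower count was 4 without CONT replicate 3 and 4 without CAC replicate 2, with 4.25% and 3.69% of all genes lower in those fits. Positive log2 fold changes were found for 24 members and negative ones for 27, with a median of -0.04 beside -0.06 over all genes.

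Among the 51 members tested, the libraries of both groups did not overlap for 12. Those that were higher in every CAC library were the same 4 genes, at 7.84% of members against 11.8% of all genes. Those lower in every CAC library were the 7 genes named before plus Mmp23, at 15.7% against 10.7%. Without CONT replicate 1 these counts were 7 higher and 15 lower, where 19.5% and 21.2% of all genes met the rule, and without CAC replicate 2 there were 8 higher, where 14.2% of all genes did. DESeq2 gave an adjusted p under 0.05 to 5 members of 52, or 9.62% beside 5.55% of all genes. These were Adamts16 (adjusted p = 8.8e-05), Mmp8 (8.5e-06), Adamts5 (0.0063), Adamts4 (0.0074) and Mmp15 (0.017). With each library left out of DESeq2 in turn, Mmp8 and Adamts16 stayed under 0.05 in all 6 fits. Adamts16 had almost no reads in CAC and Mmp8 few in CONT, so both entered the tests through the group where they were high. Adamts4 reached 0.062 without CONT replicate 2 and 0.084 without CAC replicate 3. Adamts5 reached 0.08 without CAC replicate 2 and 0.079 without CAC replicate 3. Mmp15 reached 0.051 without CONT replicate 3, 0.063 without CAC replicate 2 and 0.1 without CAC replicate 3.

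**Figure D1:**
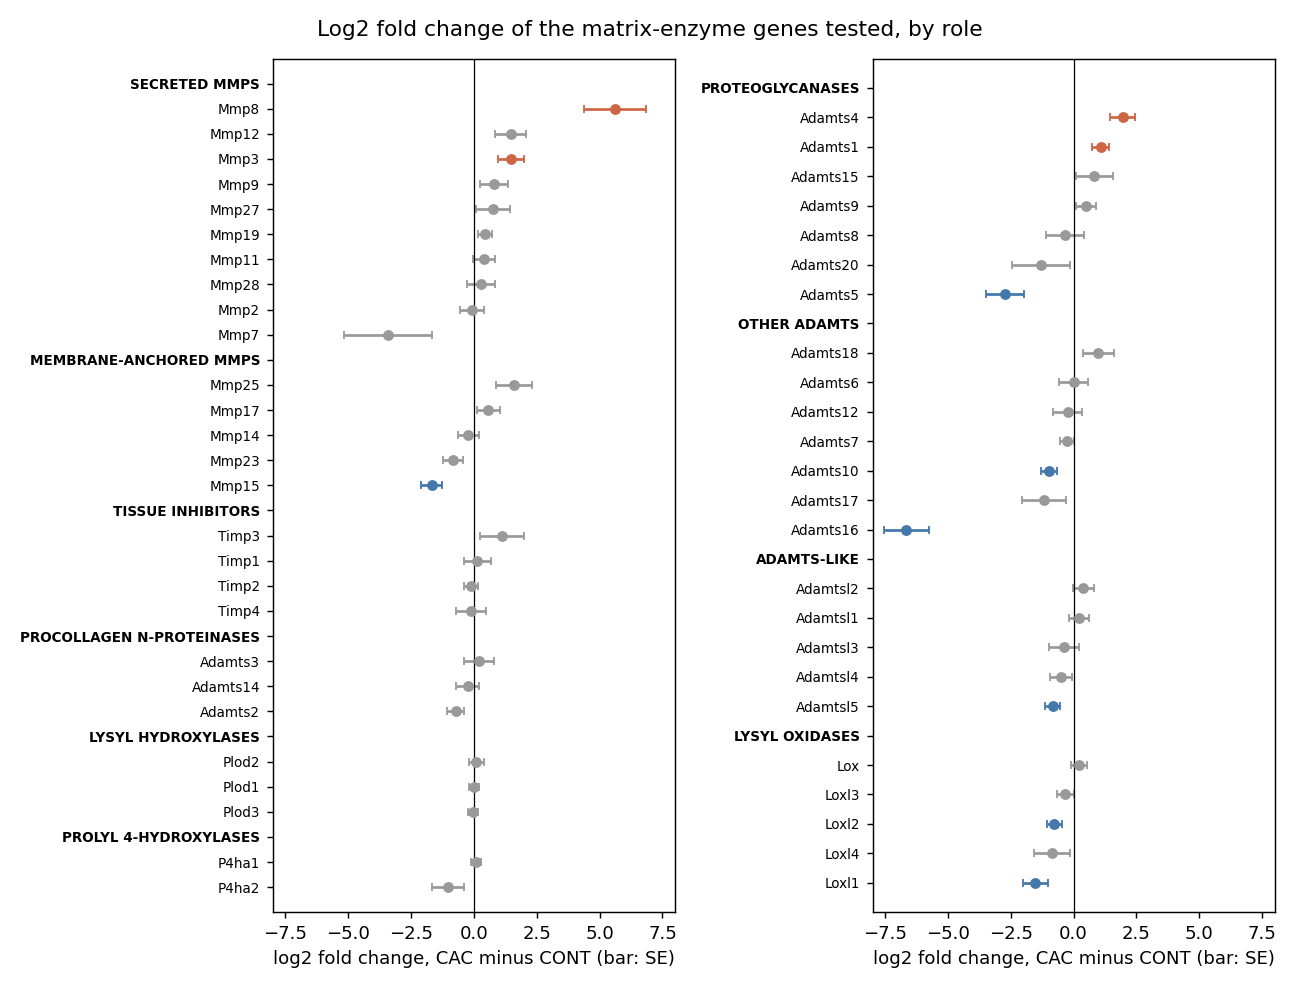
Log2 fold change of CAC minus CONT on the horizontal axis with its SE as a bar, for the 51 members tested, grouped by role. Orange points are higher and blue points lower in CAC at an unadjusted p under 0.05, grey points are the others, and the outermost points are Mmp8 at 5.61 and Adamts16 at -6.65.

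Among the 15 secreted MMPs, 10 were tested, and 8 of these had positive log2 fold changes, with a median of 0.6. Mmp8 and Mmp3 were higher at an unadjusted p under 0.05, none was lower, and 8 did not pass. Mmp8 (ENSMUSG00000005800, chr9:7558456-7568485, plus strand) encodes neutrophil collagenase, which cuts fibrillar collagens and is stored in granules of neutrophils. Its level was 0, 0.876 and 0.814 CPM in CONT and 12, 10.1 and 66.4 CPM in CAC. Behind these values were 0, 20 and 18 reads in CONT and 292, 250 and 1759 in CAC, so the gene was near the detection limit in CONT and well covered in CAC. The groups did not overlap, CAC replicate 3 was far above the other CAC libraries, and the difference was a log2 fold change of 5.61 ± 1.25 (SE), adjusted p = 0.228. Without CAC replicate 3 it was 4.22, and with library weights in limma voom 4.31.

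The 7 neutrophil markers summed to 6.15, 45.3 and 65.9 CPM in CONT and 153, 245 and 1140 CPM in CAC, and 4 of 7 (S100a8, S100a9, Ly6g and Retnlg) were higher at an unadjusted p under 0.05. The highest value of the marker sum and of Mmp8 lay in CAC replicate 3. Camp and Ltf, which encode granule proteins, were at 17 and 72.9 CPM in that library and at no more than 2.62 CPM in the other CAC libraries. Mmp9 encodes gelatinase B, which cuts denatured collagen and is another granule enzyme. It was at 9.81, 24 and 37.5 CPM in CONT and 28.6, 28.3 and 68.7 CPM in CAC, so the groups overlapped, and its log2 fold change was 0.81 ± 0.56 (SE), or 0.27 with library weights in limma voom. Mmp25 encodes leukolysin, a membrane-anchored protease of leukocytes, and was at 0.624, 2.28 and 1.08 CPM in CONT and 2.63, 2.06 and 7.51 CPM in CAC, with a log2 fold change of 1.59 ± 0.73 (SE), or 0.84 with library weights in limma voom. Both peaked in CAC replicate 3. The part of the neutrophil markers in these differences was not tested, and in RNA of whole tissue a different number of cells of a type and a different amount of RNA per cell cannot be told apart.

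**Figure D2:**
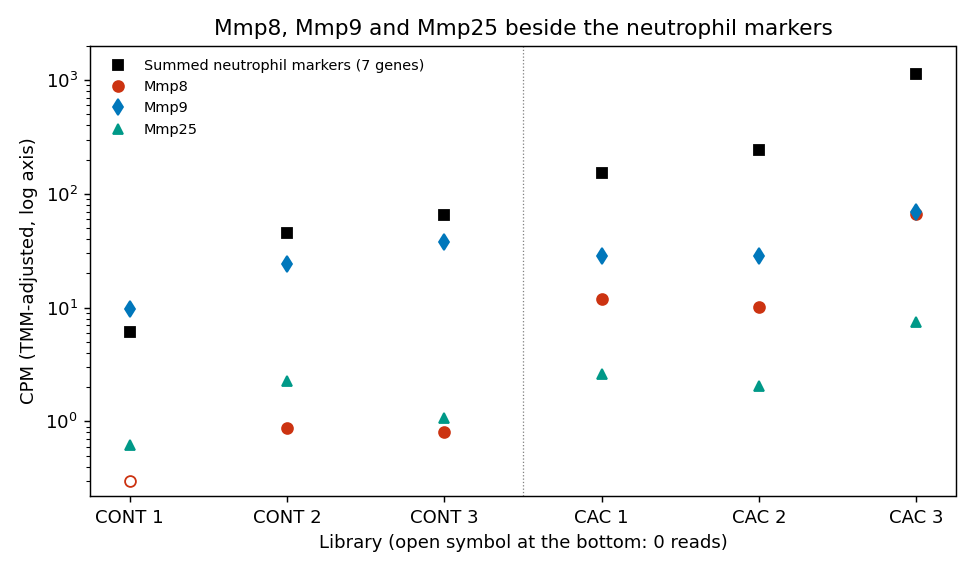
CPM on a log axis for Mmp8, Mmp9, Mmp25 and the sum of 7 neutrophil markers in each library. Mmp8 has no read in CONT replicate 1 (open symbol) and reaches 66.4 CPM in CAC replicate 3, where the marker sum is 1140 CPM.

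Mmp3 (ENSMUSG00000043613, chr9:7445822-7455975, plus strand), stromelysin, cuts proteoglycans and can activate other MMPs. It was a low gene, at 0.981, 0.92 and 0.768 CPM in CONT and 1.36, 3.79 and 2.19 CPM in CAC. All CAC libraries lay above all CONT libraries, though CAC replicate 1 by little, and the difference was a log2 fold change of 1.46 ± 0.52 (SE), adjusted p = 0.33. Its p was 0.15 without CAC replicate 2 and above 0.05 without any CONT library or CAC replicate 3. Mmp12, macrophage elastase, was at 3.12, 10.2 and 6.01 CPM in CONT and 32.2, 9.97 and 11.5 CPM in CAC, with overlapping groups, and its difference was a log2 fold change of 1.47 ± 0.62 (SE), adjusted p = 0.379. With library weights in limma voom it was 0.66. Macrophage markers summed to 499, 1500 and 1550 CPM in CONT and 1310, 771 and 958 CPM in CAC, without a common direction, and 1 of 8, Gpnmb, was higher at an unadjusted p under 0.05.

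Mmp3, Mmp8 and Mmp12 belong to a row of 9 members on chr9 between 7272514 and 7699585, which also holds Mmp13, Mmp1b, Mmp10, Mmp27, Mmp20 and Mmp7. Of these 9 genes, 5 were tested, and 4 of them had positive log2 fold changes. The exception was Mmp7, matrilysin, a small epithelial protease with broad substrates. Mmp7 was at 0, 82.5 and 46.6 CPM in CONT and 2.09, 8.96 and 1.06 CPM in CAC. It was absent from CONT replicate 1 and highest in the other CONT libraries, and its log2 fold change was -3.42 ± 1.76 (SE), with an edgeR adjusted p = 0.442. The value was -2.53 without CONT replicate 2, -3.98 without CONT replicate 1, with an unadjusted p of 0.011, and -4.75 without CAC replicate 2.

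Promoters of 41 of the 61 members were in the RefSeq table for GRCm38, as 250 bases before and 50 after each start, in 44 entries. The letters TGANTCA, the pattern of AP-1 factors, read on both strands, stood in 7 of 44, or 15.9%, beside 7.81% of all 32851 promoters. All 7 belonged to genes of the chr9 row, 7 of its 9 genes, and none to the other 32 members. The letters ACGTG, the core of the pattern of hypoxia-inducible factors, stood in 25.0% of the members' promoters and in 19.6% of all, and the patterns do not overlap each other. Mmp3 held TGANTCA at -46 from its start, whereas Mmp8 and Mmp27 held none. Adamts1, Mmp15, Mmp23 and Adamtsl5 held neither pattern. The promoters of Mmp3 (chr9:7445572-7445871, plus strand, pattern in capitals) and Mmp8 (chr9:7558179-7558478, plus strand, no pattern) are shown as the genes of the row with an unadjusted p under 0.05.
Mmp3: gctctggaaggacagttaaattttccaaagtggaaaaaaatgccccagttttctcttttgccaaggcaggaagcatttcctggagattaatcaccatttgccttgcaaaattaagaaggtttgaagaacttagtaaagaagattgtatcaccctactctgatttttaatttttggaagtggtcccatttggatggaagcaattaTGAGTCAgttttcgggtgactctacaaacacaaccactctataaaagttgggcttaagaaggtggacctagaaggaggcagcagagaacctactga
Mmp8: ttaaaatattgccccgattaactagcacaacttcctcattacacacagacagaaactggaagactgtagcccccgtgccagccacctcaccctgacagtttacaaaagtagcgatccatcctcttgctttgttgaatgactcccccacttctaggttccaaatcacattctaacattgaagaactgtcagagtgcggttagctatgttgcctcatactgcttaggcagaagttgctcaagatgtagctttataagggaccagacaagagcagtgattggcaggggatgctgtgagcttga

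By mean FPKM over all libraries, the secreted MMPs with the highest levels were Mmp7, Mmp2 and Mmp19, but the order differed between groups. Mmp7 had a mean of 32.2 FPKM in CONT and 3.08 FPKM in CAC. Mmp8 had 22.3 FPKM in CAC replicate 3, the highest secreted MMP there, and 4.07 and 3.38 FPKM in CAC replicates 1 and 2, where Mmp28 (13.1 and 7.72 FPKM) and Mmp19 (11.5 and 6.65 FPKM) were above it. Mmp2, gelatinase A, which works on denatured collagen and basement membranes, had a mean level of 13 ± 6.32 FPKM (SD, n = 3) in CONT and 12.6 ± 4.51 FPKM in CAC. It was lowest in CONT replicate 1 and did not differ beyond the spread, at a log2 fold change of -0.07 ± 0.47 (SE), adjusted p = 0.966. Mmp19 had a mean level of 6.52 ± 1.51 FPKM (SD, n = 3) in CONT and 9.02 ± 2.42 FPKM in CAC, with a log2 fold change of 0.44 ± 0.28 (SE), adjusted p = 0.52. It shares 22.3% of its exon bases with Tmem198b, which had 1276 reads beside its 4643. The remaining tested secreted genes, Mmp11, Mmp27 and Mmp28, had log2 fold changes of 0.28 to 0.76 and p of at least 0.29. Mmp11 was at 34.1 CPM in CONT replicate 1 and at 13.5 to 35 CPM in the other libraries, and limma voom with library weights put its log2 fold change at 1.06 ± 0.24 (SE).

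Of the 7 membrane-anchored MMPs, 5 were tested. Mmp15 was lower at an unadjusted p under 0.05 and 4 did not pass. Mmp15 (ENSMUSG00000031790, chr8:95352268-95375080, plus strand) encodes a transmembrane MMP that cuts matrix at the cell surface. Its level was 60.5, 25.3 and 32.9 CPM in CONT and 15.3, 14.4 and 7.51 CPM in CAC. All CONT values exceeded all CAC values, CONT replicate 1 most of all, and the difference was a log2 fold change of -1.67 ± 0.42 (SE), adjusted p = 0.251. Mmp23 (ENSMUSG00000029061, chr4:155650655-155653384, minus strand), an unusual family member that is anchored at its start and lacks the hemopexin part, was at 22.5, 24.2 and 22.1 CPM in CONT and 16, 16.3 and 6.15 CPM in CAC. The groups did not overlap, CAC replicate 3 was lowest, and the difference was a log2 fold change of -0.84 ± 0.39 (SE), adjusted p = 0.409. It was -0.5 without CAC replicate 3.

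Mmp14 encodes the membrane MMP that activates the pro-form of gelatinase A. With a mean level of 14.9 ± 9 FPKM (SD, n = 3) in CONT and 12.9 ± 3.12 FPKM in CAC, it was the most abundant of the membrane-anchored genes, and CONT replicate 1 was the highest library. Its log2 fold change of -0.22 ± 0.43 (SE) was 0.4 without that library. Mmp17 was at 0.58 ± 0.44 (SE). Mmp16 and Mmp24 were not tested.

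None of the 4 tissue inhibitors passed. Timp2, which also takes part in the activation of gelatinase A by MMP14, was the most abundant member of all, with a mean level of 82 ± 12.8 FPKM (SD, n = 3) in CONT and 76.1 ± 19.5 FPKM in CAC. Its difference was a log2 fold change of -0.13 ± 0.28 (SE), adjusted p = 0.874. Timp3, which stays bound to the matrix and also inhibits ADAMTS proteases, had a mean level of 20.7 ± 16.2 FPKM (SD, n = 3) in CONT and 45.9 ± 28.1 FPKM in CAC. It stood at 28.2 CPM in CONT replicate 1 and at 255 to 772 CPM in the other libraries, CAC replicate 1 was the highest, and the log2 fold change was 1.12 ± 0.86 (SE). It was 0.61 without CONT replicate 1, 1.7 without CONT replicate 3, 0.57 without CAC replicate 1 and 0.46 with library weights in limma voom. Timp3 shares 21.3% of its exon bases with Syn3, which had 160 reads beside 47867 of Timp3. The library kit does not mark strand, so reads in bases that genes share cannot be told apart. Timp4, an inhibitor found mainly in fat, heart and muscle, had a mean level of 29.9 ± 20.8 FPKM (SD, n = 3) in CONT and 27.7 ± 16.1 FPKM in CAC. It was highest in CONT replicate 1, and its log2 fold change of -0.13 ± 0.6 (SE) was 0.59 without that library. Timp1, which is readily induced in many cells, was low at a mean level of 1.7 ± 0.593 FPKM (SD, n = 3) in CONT and 1.91 ± 0.876 FPKM in CAC, with a log2 fold change of 0.13 ± 0.53 (SE).

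Summed FPKM of the inhibitors was 125, 128 and 150 in CONT and 209, 146 and 99 in CAC, and that of all MMPs was 69.2, 128 and 104 in CONT and 79, 85.9 and 89 in CAC. The ratio of inhibitors to MMPs was 1.8, 1 and 1.43 in CONT and 2.65, 1.7 and 1.11 in CAC. The groups overlapped for all of these sums. Inhibitors made up 32.3% to 37.4% of the summed FPKM of the members in CONT and 35.1% to 46.2% in CAC.

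**Figure D3:**
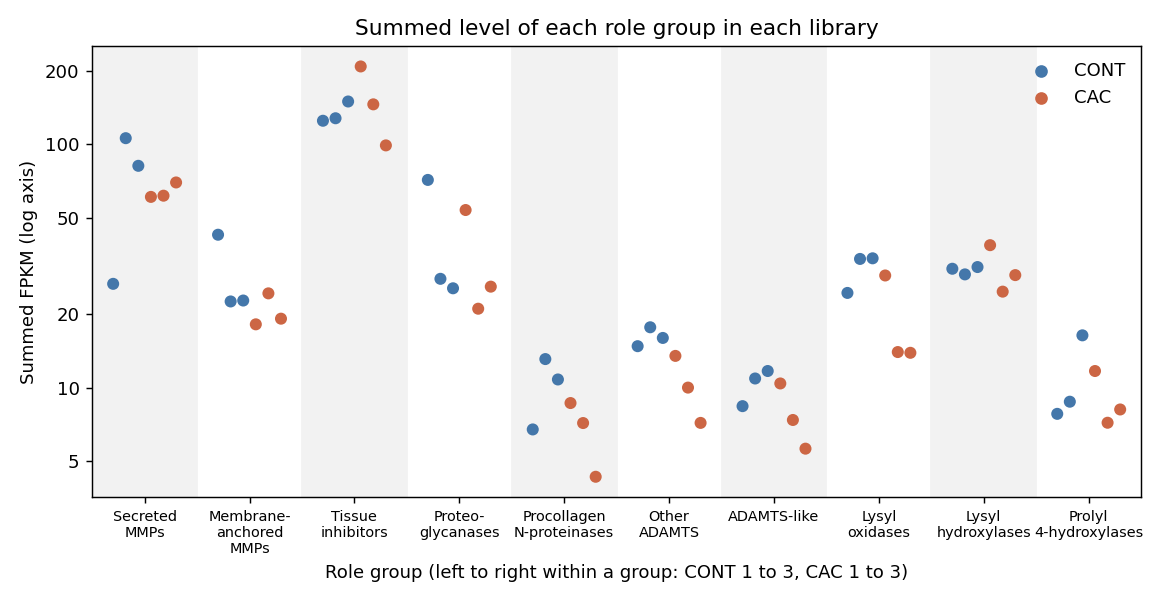
Summed FPKM on a log axis for each role group, with 1 point per library from left to right, CONT replicates 1 to 3 in blue and CAC replicates 1 to 3 in orange. Tissue inhibitors range from 99 to 209, the highest band, and only the other ADAMTS genes have all CAC libraries (7.16 to 13.5) below all CONT libraries (14.8 to 17.7).

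The 7 proteoglycanases, which cut aggrecan, versican and related proteoglycans, held 2 genes that were higher in CAC, Adamts4 and Adamts1, 1 that was lower, Adamts5, and 4 that did not pass. Adamts5 (ENSMUSG00000022894, chr16:85856173-85901828, minus strand) was at 742, 192 and 142 CPM in CONT and 89.6, 44.2 and 28.2 CPM in CAC. It was lower in every CAC library than in every CONT library, CONT replicate 1 was by far the highest, and the difference was a log2 fold change of -2.73 ± 0.77 (SE), adjusted p = 0.273. Without CONT replicate 1 it was -1.61, and with library weights in limma voom -2. Adamts1 (ENSMUSG00000022893, chr16:85793827-85803113, minus strand) was at 59.4, 50.8 and 58.1 CPM in CONT and 179, 84.4 and 89 CPM in CAC. CONT libraries were close together, all CAC libraries were higher with CAC replicate 1 the highest, and the difference was a log2 fold change of 1.07 ± 0.33 (SE), adjusted p = 0.285. It was 0.67 without CAC replicate 1. Adamts4 (ENSMUSG00000006403, chr1:171250421-171260637, plus strand) was at 2.85, 3.9 and 4.61 CPM in CONT and 14.3, 6.82 and 22.8 CPM in CAC, and the difference was a log2 fold change of 1.95 ± 0.49 (SE), adjusted p = 0.251. With library weights in limma voom it was 1.27. All CAC values exceeded all CONT values, CAC replicate 3 being the highest.

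Adamts1 and Adamts5 are neighbors on chr16, 53.1 kb apart, with no protein-coding gene between them. Their FPKM ratio, Adamts1 over Adamts5, was 0.163, 0.538 and 0.831 in CONT and 4.07, 3.89 and 6.43 in CAC. Adamts5 was thus the more abundant per length in each CONT library and Adamts1 in each CAC library. The pair was chosen after its values were seen, and 3 libraries against 3 cannot give a two-sided exact permutation p below 0.1. Adamts15 was at 41.5, 30 and 26 CPM in CONT and 127, 16.8 and 28.9 CPM in CAC, and its log2 fold change of 0.83 ± 0.73 (SE) was -0.47 without CAC replicate 1. Adamts8, Adamts9 and Adamts20 had log2 fold changes of -1.3 to 0.5.

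None of the 3 procollagen N-proteinases, which remove the N-terminal propeptide of fibrillar procollagens, passed. Adamts2, the most abundant, had a mean level of 8.83 ± 2.58 FPKM (SD, n = 3) in CONT and 5.47 ± 1.89 FPKM in CAC, and the difference was a log2 fold change of -0.72 ± 0.34 (SE), adjusted p = 0.421. Without CONT replicate 1, its lowest CONT library, it was -0.92, and its unadjusted p was then 0.042. Adamts14 was at -0.25 ± 0.47 (SE) and Adamts3 at 0.19 ± 0.59 (SE), both at a mean under 2 FPKM in each group.

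Among the 9 other Adamts genes, 7 were tested. Adamts16 and Adamts10 were lower at an unadjusted p under 0.05 and 5 did not pass. Adamts16 (ENSMUSG00000049538, chr13:70727802-70841811, minus strand), a protease that can cut fibronectin, had 18, 36 and 54 reads in CONT and 0, 0 and 1 in CAC, which is 1.61, 1.58 and 2.44 CPM in CONT and 0, 0 and 0.0378 CPM in CAC. The gene was low but present in each CONT library and almost absent from CAC. A count of 0 in CAC replicates 1 and 2 allows up to 0.123 and 0.121 CPM. Scaled by library size, its 108 CONT reads against 1 CAC read gave a ratio of 145, with a counting interval (95%) of 25.5 to 5790 that does not cover the spread between mice. The fitted difference, which depends on the prior count of the fit, was a log2 fold change of -6.65 ± 0.89 (SE), adjusted p = 0.142.

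Epididymal fat lies against the epididymis, and 6 epididymis markers summed to 203, 2.76 and 7730 CPM in CONT and 0, 0 and 0.529 CPM in CAC. In the same order of libraries, Adamts16 stood at 1.61, 1.58 and 2.44 CPM in CONT and 0, 0 and 0.0378 CPM in CAC. B and plasma cell markers summed to 370, 1000 and 557 CPM in CONT and 106, 90.2 and 27.9 CPM in CAC. The part of these cells in the Adamts16 difference was not tested.

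Adamts10 (ENSMUSG00000024299, chr17:33524204-33553782, plus strand), which associates with fibrillin microfibrils, was at 75.3, 69.8 and 60.4 CPM in CONT and 45.9, 38.1 and 20.4 CPM in CAC. All CAC libraries were below all CONT libraries, CAC replicate 3 was the lowest, and the difference was a log2 fold change of -0.98 ± 0.31 (SE), adjusted p = 0.295. Its p was 0.062 without CONT replicate 1. Adamts12 was at 17.7, 60.2 and 63.1 CPM in CONT and 68, 27.2 and 25.4 CPM in CAC, with a log2 fold change of -0.23 ± 0.58 (SE), or -0.91 with library weights in limma voom, and Adamts7 was at -0.28 ± 0.28 (SE). Adamts6, Adamts17 and Adamts18 had p of at least 0.15 in edgeR, where Adamts13 and Adamts19 were not tested. Adamts17 went from -1.17 in edgeR to -2.29 ± 0.75 (SE) with library weights in limma voom, and Adamts18 from 0.98 to 1.6 ± 0.53 (SE). Both had an unadjusted voom p of 0.02, with adjusted p of 0.111 and 0.113. Adamts19, picked out after its values were seen, was at 0.535, 1.36 and 0.859 CPM in CONT and 0.37, 0.0807 and 0.0755 CPM in CAC, too few reads for the edgeR fit although its groups did not overlap. DESeq2 gave it a log2 fold change of -2.37 ± 1.05 (SE), adjusted p = 0.19.

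Of the 5 Adamts-like genes, Adamtsl5 was lower at an unadjusted p under 0.05 and 4 did not pass. Adamtsl5 (ENSMUSG00000043822, chr10:80339110-80348412, minus strand) was at 19.7, 16.5 and 17.5 CPM in CONT and 12.5, 11.2 and 6.49 CPM in CAC. The groups did not overlap, and the difference was a log2 fold change of -0.83 ± 0.3 (SE), adjusted p = 0.337. With any of CONT replicate 1, CONT replicate 2, CONT replicate 3, CAC replicate 2 or CAC replicate 3 left out, its p lay between 0.055 and 0.076. Adamtsl4, a microfibril-associated protein, was the most abundant with a mean level of 4.93 ± 1.32 FPKM (SD, n = 3) in CONT and 3.55 ± 1.94 FPKM in CAC, and its log2 fold change of -0.5 ± 0.42 (SE) was -0.98 without CAC replicate 1, with an unadjusted p of 0.021. Adamtsl1 was at 0.23 ± 0.4 (SE), and Adamtsl2 and Adamtsl3 had p of at least 0.38.

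**Figure D4:**
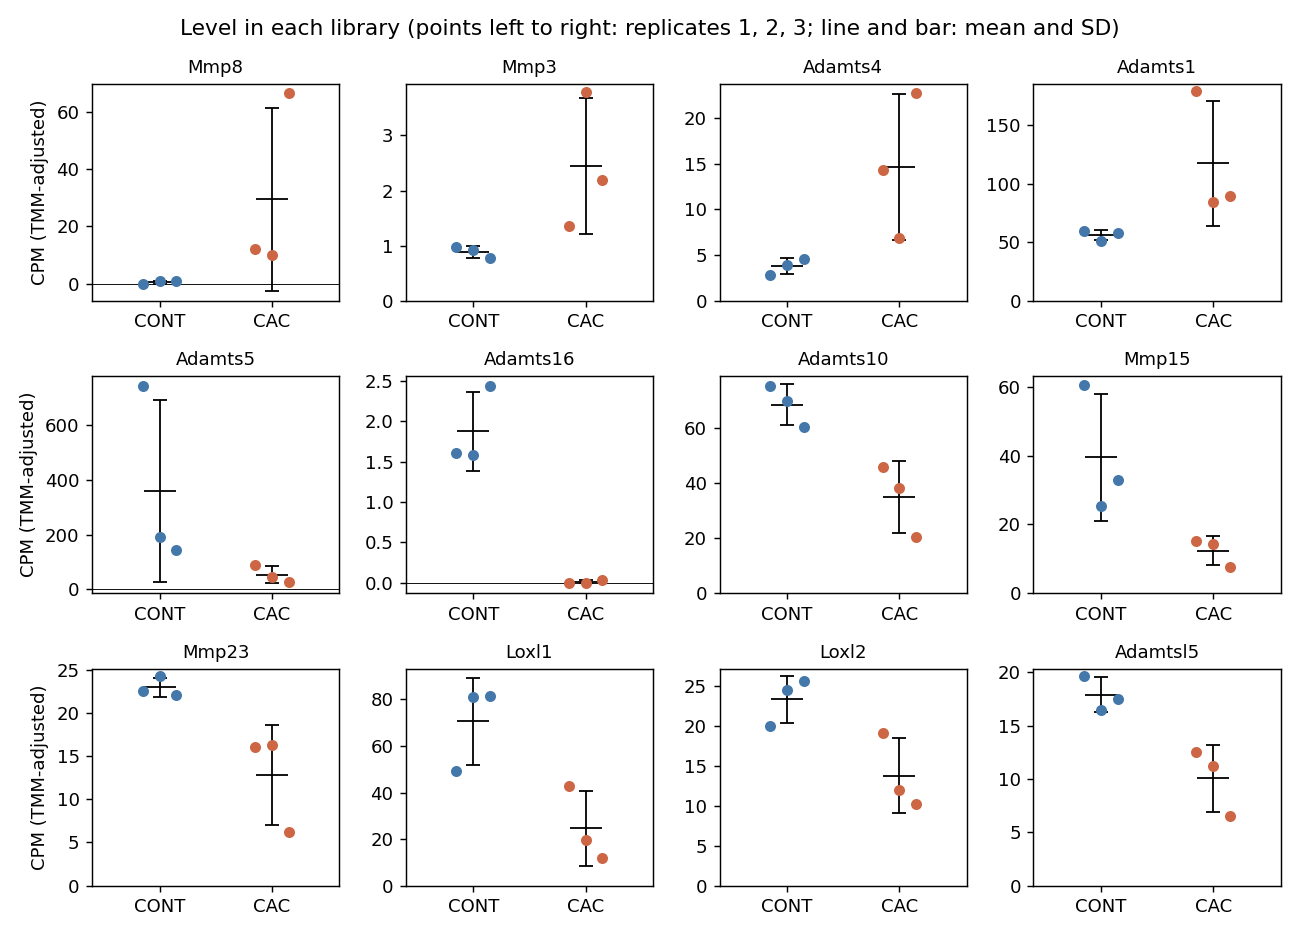
TMM-adjusted CPM of the 12 tested members whose libraries did not overlap between groups, with 1 panel per gene on its own linear axis, 1 point per library, and the group mean with its SD. Mmp8, Mmp3, Adamts4 and Adamts1 are higher in each CAC library, and the other 8 genes are lower, with Adamts16 at 0, 0 and 0.0378 CPM in CAC.

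Among the 5 lysyl oxidases, Loxl1 and Loxl2 were lower at an unadjusted p under 0.05 and 3 did not pass, and 4 of 5 log2 fold changes were negative, with a median of -0.77. Loxl1 (ENSMUSG00000032334, chr9:58287738-58313186, minus strand), the crosslinker that elastic fibers depend on, was at 49.1, 81 and 81.6 CPM in CONT and 42.6, 19.4 and 11.9 CPM in CAC. Every CAC library was below every CONT library, CAC replicate 1 by the least, and the difference was a log2 fold change of -1.52 ± 0.49 (SE), adjusted p = 0.298. It was -2.12 without CAC replicate 1, and its p was 0.062 without CONT replicate 3 and 0.076 without CAC replicate 2. Loxl2 (ENSMUSG00000034205, chr14:69609068-69695834, plus strand), which crosslinks collagen of basement membranes, was at 20, 24.5 and 25.6 CPM in CONT and 19.1, 12 and 10.2 CPM in CAC. Its groups were only just apart, and the difference was a log2 fold change of -0.77 ± 0.29 (SE), adjusted p = 0.347. Its p lay between 0.09 and 0.12 without CONT replicate 2, CONT replicate 3, CAC replicate 2 or CAC replicate 3.

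Lox itself, the founding collagen and elastin crosslinker, had a mean level of 7.32 ± 0.75 FPKM (SD, n = 3) in CONT and 8.68 ± 3.97 FPKM in CAC. The highest and the lowest library were both CAC libraries, and the log2 fold change of 0.22 ± 0.33 (SE) did not differ from 0 beyond its error. Loxl3 was at -0.33 ± 0.35 (SE) and Loxl4 at -0.86 ± 0.73 (SE). Summed FPKM of the 5 genes was 24.5, 33.8 and 34 in CONT and 28.9, 14 and 13.9 in CAC.

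Fibroblasts and their progenitors are the main matrix-producing cells of fat. Their 9 markers summed to 2570, 3040 and 3070 CPM in CONT and 2360, 2090 and 1420 CPM in CAC, and 6 of 9 (Dpt, Pi16, Lum, Col1a1, Col1a2 and Col3a1) were lower at an unadjusted p under 0.05. Pdgfra, their defining receptor, was at -0.07 ± 0.63 (SE), Dcn at 0.6 ± 0.27 (SE) with all CAC libraries above all CONT libraries, and Fap at -0.43 ± 0.38 (SE). The part of these cells in the differences of Loxl1, Loxl2, Adamts5, Adamts10, Mmp23 and Adamtsl5 was not tested. Of the other cell type markers, 2 of 5 for B and plasma cells (Jchain and Ighm) were lower at an unadjusted p under 0.05. By that rule 1 of 6 for mesothelium was higher and 1 of 5 for smooth muscle and pericytes was lower. Of 6 for epididymis only 1, Adam7, was tested, and it was lower. None of 8 for adipocytes, 5 for endothelium or 5 for T cells met the rule. Of all genes tested, 6.31% were higher and 6.95% lower by it.

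None of the tested enzymes that modify collagen inside the cell passed. The 3 lysyl hydroxylases had log2 fold changes of -0.04 to 0.1. Plod1 had a mean level of 12.2 ± 0.77 FPKM (SD, n = 3) in CONT and 12.5 ± 2.72 FPKM in CAC, with a log2 fold change of 0.01 ± 0.21 (SE), adjusted p = 0.989. Plod3, which also adds sugars to hydroxylysine, had a mean level of 16.1 ± 0.743 FPKM (SD, n = 3) in CONT and 15.9 ± 3.85 FPKM in CAC, with a log2 fold change of -0.04 ± 0.21 (SE), adjusted p = 0.951, and shares 11.7% of its exon bases with Znhit1 (5039 reads beside 11669). Plod2, which modifies the telopeptide lysines that later enter crosslinks, was less abundant per length, with a mean level of 2.2 ± 0.599 FPKM (SD, n = 3) in CONT and 2.41 ± 0.506 FPKM in CAC, and its difference was a log2 fold change of 0.1 ± 0.3 (SE), adjusted p = 0.912. P4ha1, the main catalytic subunit of prolyl 4-hydroxylase in most tissues, had a mean level of 6.06 ± 0.886 FPKM (SD, n = 3) in CONT and 6.55 ± 1.16 FPKM in CAC and a log2 fold change of 0.09 ± 0.21 (SE). P4ha2 was at 20.9, 19.2 and 74.3 CPM in CONT and 29.9, 12.8 and 13.3 CPM in CAC. Its high value lay in CONT replicate 3, the library with the most epididymis marker reads, whose part in it was not tested, and its log2 fold change of -1.03 ± 0.63 (SE) was -0.09 without that library. P4ha3 was not tested.

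Partners of the members were read from lists by function. Of 14 activators and inhibitors of the proteases, 12 were tested. At an unadjusted p under 0.05, 2 were higher and 1 was lower, beside 6.31% and 6.95% of all genes. The median of this list was -0.08 in log2 fold change. Plaur, the receptor that holds urokinase at the cell surface, was at 7.13, 10.4 and 7.68 CPM in CONT and 22.1, 17.2 and 31.3 CPM in CAC, with no overlap and a log2 fold change of 1.48 ± 0.31 (SE), adjusted p = 0.226. Lrp1, an endocytic receptor that clears proteases and their inhibitors, was at 265, 850 and 987 CPM in CONT and 1330, 2310 and 2130 CPM in CAC, with a log2 fold change of 1.46 ± 0.54 (SE), adjusted p = 0.338. Serpine2, protease nexin, an inhibitor of thrombin and plasminogen activators, was at 116, 51.9 and 47.2 CPM in CONT and 38.8, 31.2 and 25.3 CPM in CAC, with a log2 fold change of -1.17 ± 0.39 (SE), adjusted p = 0.305.

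Of 21 other matrix proteases and their enhancers, 19 were tested, none was higher and 2 were lower, beside 6.31% and 6.95% of all genes. The 2 lower genes act together: Bmp1 removes the C-terminal propeptide of procollagen, and Pcolce speeds that step. Pcolce was at 65.4, 66.5 and 52.9 CPM in CONT and 30.9, 28.8 and 32.5 CPM in CAC, with groups far apart for their spread and a log2 fold change of -1 ± 0.17 (SE), adjusted p = 0.215. Bmp1 was at 62.5, 74.2 and 68.5 CPM in CONT and 54.1, 37.7 and 30.8 CPM in CAC, with a log2 fold change of -0.74 ± 0.24 (SE), adjusted p = 0.303. Of 12 further genes of collagen maturation, 12 were tested and 2 were lower, beside 6.95% of all genes. Serpinh1, the collagen chaperone of the endoplasmic reticulum, was at 572, 359 and 297 CPM in CONT and 225, 111 and 118 CPM in CAC, with a log2 fold change of -1.43 ± 0.4 (SE), adjusted p = 0.273. Fkbp10, a prolyl isomerase that works with lysyl hydroxylase on collagen, was at 29.5, 24 and 20.4 CPM in CONT and 16.3, 18.1 and 14.7 CPM in CAC, with a log2 fold change of -0.59 ± 0.22 (SE), adjusted p = 0.339.

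Among 21 substrates other than collagens, 19 were tested, 2 were higher and 3 were lower, beside 6.31% and 6.95% of all genes. Thbs1, a matricellular protein that binds proteases and activates latent TGF-beta, was at 25.9, 38.6 and 34.1 CPM in CONT and 205, 70.8 and 111 CPM in CAC, with a log2 fold change of 1.97 ± 0.41 (SE), adjusted p = 0.228. Its relative Thbs2 was at 16.3, 20.1 and 33 CPM in CONT and 122, 62.9 and 28.2 CPM in CAC, with overlapping groups and a log2 fold change of 1.62 ± 0.55 (SE), adjusted p = 0.311. Fbn1, the main protein of microfibrils, was at 43.3, 159 and 194 CPM in CONT and 58.4, 39.5 and 20.2 CPM in CAC. The lowest CONT library lay within the range of CAC, and the difference was a log2 fold change of -1.75 ± 0.62 (SE), adjusted p = 0.329. Sparc, a collagen-binding protein, was at 2040, 2140 and 2070 CPM in CONT and 1560, 508 and 444 CPM in CAC, with a log2 fold change of -1.31 ± 0.53 (SE), adjusted p = 0.369, and Lum, a collagen-binding proteoglycan, was at 47.3, 69 and 67.2 CPM in CONT and 36.5, 37.9 and 14.7 CPM in CAC, with a log2 fold change of -1.04 ± 0.39 (SE), adjusted p = 0.339. Medians of the lists were -0.16 for the other proteases, -0.23 for collagen maturation and -0.29 for the substrates, beside -0.06 over all genes.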

How the data were processed

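Poly(A) RNA of 6 eWAT libraries was sequenced with a kit that does not mark strand. The authors deposited raw read counts per gene, made with HISAT2 2.0.5 and featureCounts 1.5.0-p3 according to the submitters' processing notes and Ensembl annotation, and FPKM values. In the deposited FPKM, each count was scaled by gene length and by a total per library, of an origin not given in the sources used here, that is not the sum of the counts. Members and lists were chosen with earlier results of these data known.

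Counts were tested across all genes with edgeR 4.0.16 (R 4.3.3; TMM scaling, filterByExpr by group, robust quasi-likelihood F test, Benjamini-Hochberg adjustment), which gave the log2 fold changes, SEs and p-values, and the scripts were tested on simulated data. Rows that pass the filter number 17296. Members named had an unadjusted p under 0.05, libraries that did not overlap, or one of the 3 highest mean FPKM values of their role. Mmp9, Mmp12, Mmp25 and other members outside this rule were added after their values were seen. Partners were named at an unadjusted p under 0.05. Alternatives were DESeq2 1.42.0, limma 3.58.1 (voom with library weights, or log2 FPKM with a pseudocount of 1 or 0.1), other scalings and filters, a replicate block and single libraries left out. DESeq2 with libraries left out was added after seeing the data. Zinc sites come from GENCODE M21 coding transcripts in place of the planned protein table, which was not used here, and promoters from RefSeq, both on GRCm38. Intervals and floors (3 reads) cover counting error only.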

Additional observations from a re-analysis of the deposited data

How the results depend on the processing

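No member passed an adjusted p of 0.05 under the RLE or upper-quartile scaling, without a filter, with at least 10 counts in every library, on log2 FPKM, with the replicate block or without any library. DESeq2 gave 5 members (959 genes in all, against 0 in edgeR) and limma voom with library weights 4 (956 genes), namely Adamts16, Adamts5, Loxl1 and Loxl2. With the weights the members lower at an unadjusted p went from 7 to 14 (27.5%), and all genes lower from 6.95% to 16%. With libraries left out in turn, that count ranged from 4 to 9, the members without overlap from 4 to 8 higher and from 8 to 15 lower, and the cause was not tested. Same-numbered libraries correlated at 0.24, -0.25 and -0.28 after removal of the group means, so the numbers do not pair the mice. With the replicate block, 4 members were higher and 6 lower at an unadjusted p, the median was -0.01, and 1 gene outside the members passed an adjusted p of 0.05.

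DESeq2 and voom were read for all tested members, and the other alternatives for the members named by the rule. Among the latter that changed sign, left-out libraries moved Adamtsl1 between -0.18 and 0.48, Plod3 between -0.20 and 0.10, Plod1 between -0.12 and 0.14, Plod2 between -0.09 and 0.29, Lox between -0.14 and 0.49, Mmp14 between -0.44 and 0.40, Adamts12 between -0.77 and 0.06, Adamts14 between -0.57 and 0.07, Adamts3 between -0.26 and 0.55, P4ha1 between -0.02 and 0.21, Adamts15 between -0.47 and 1.28, Mmp2 between -0.41 and 0.19, Timp2 between -0.26 and 0.07 and Timp4 between -0.67 and 0.59. With library weights, among the same members, Plod1 was at -0.10, Plod2 at -0.26, Lox at -0.10, Mmp14 at 0.44, P4ha1 at -0.13, Adamts15 at -0.11 and Timp4 at 0.30, and 3 members outside the rule also changed sign (Adamts9 at -0.09, Mmp28 at -0.20 and Timp1 at -0.12). Plod1 was at -0.02 with upper-quartile scaling and -0.01 with the replicate block. Without a filter Plod3 was at 0.03 and Mmp2 at 0.02. Mmp2 was at 0.01 with the replicate block, 0.03 on log2(FPKM + 1) with or without the filter and 0.04 on log2(FPKM + 0.1). None of the 12 tested members without overlap changed sign.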
